A study of Homo sapiens with 5 samples.

Results

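The lysosome genes described here are 35 genes for lysosomal hydrolases, lysosomal membrane proteins and subunits of the V-ATPase, chosen by symbol from a list, with no threshold on their values. All 35 were found among the 36601 features of the files, and 32 reached 10 CPM (counts of a gene in 1e+06 counts of its library) in at least 1 library. TPP1, MCOLN1 and ATP6V1B2 stayed below that level in every library. By role they comprise 9 cathepsins and peptidases, 7 glycosidases, 6 genes of lipid breakdown and cholesterol export, 6 membrane proteins and 7 V-ATPase genes.

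RNA was counted in single cells of MDA-MB-468, a human cell line of triple-negative breast cancer that has long been in culture, in 5 libraries with 1 library per group. Untreated cells were taken at 0 h and at 72 h. Other cells received PF0517515 for 6 h or for 72 h, and the fifth library held recovery cells after 72 h of that treatment. The series' title speaks of inhibition of acetyl-CoA carboxylase, which supplies the malonyl-CoA used to build fatty acids, and its design text sets PF0517515 beside the same inhibition. Dose, vehicle and length of recovery are not given in the labels. With 1 library per group there is no spread between samples, so no test was made, and every fold below is a ratio of the CPM of 2 libraries with an exact 95% interval that covers counting error only.

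Lysosomes digest proteins, glycans and lipids in an acid interior. The V-ATPase pumps protons inward to keep that acidity, hydrolases such as cathepsins and glycosidases cut the cargo, and a coat of heavily glycosylated membrane proteins, among them LAMP1 and LAMP2, lines the organelle. Many lysosome genes are known targets of the transcription factors TFEB, TFE3 and MITF, which bind a palindromic element with the core CACGTG near the gene start. GPNMB, a glycoprotein of melanosomes and lysosomes, is a further known target of these factors.

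Promoter sequences are shown because this shared element is what the genes are best known for having in common, and the printed set holds the 5 genes with its longer form together with GPNMB, whose levels differed most between libraries. RefSeq promoter windows on GRCh38.p14, 250 bases before to 50 bases from the start on, were found for 23 of the 35 genes. The 6-base core CACGTG and the 8-base form TCACGTGA were searched. Each is its own reverse complement, so 1 search covers both strands, and every 8-base match contains a 6-base match. Capitals mark CACGTG.
GPNMB, chr7:23246525-23246824, plus strand: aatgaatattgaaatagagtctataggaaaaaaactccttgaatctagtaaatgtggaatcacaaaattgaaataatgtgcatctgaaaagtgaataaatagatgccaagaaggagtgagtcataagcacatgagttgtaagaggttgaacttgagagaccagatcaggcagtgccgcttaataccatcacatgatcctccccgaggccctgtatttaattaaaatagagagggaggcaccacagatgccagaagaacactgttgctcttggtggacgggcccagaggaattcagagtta
GAA, chr17:80101331-80101630, plus strand: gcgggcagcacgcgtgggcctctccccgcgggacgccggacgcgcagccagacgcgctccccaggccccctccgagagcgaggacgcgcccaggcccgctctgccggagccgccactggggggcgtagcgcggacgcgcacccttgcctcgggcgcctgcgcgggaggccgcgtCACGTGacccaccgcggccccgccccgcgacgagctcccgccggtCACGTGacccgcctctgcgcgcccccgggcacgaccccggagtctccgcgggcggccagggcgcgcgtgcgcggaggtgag
LAMP1, chr13:113296989-113297288, plus strand: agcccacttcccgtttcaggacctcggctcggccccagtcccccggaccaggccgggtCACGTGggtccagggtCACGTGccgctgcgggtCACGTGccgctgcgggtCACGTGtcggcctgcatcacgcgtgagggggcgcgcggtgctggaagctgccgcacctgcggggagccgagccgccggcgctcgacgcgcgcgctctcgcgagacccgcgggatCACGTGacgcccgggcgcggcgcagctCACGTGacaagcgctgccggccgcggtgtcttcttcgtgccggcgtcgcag
CTSA, chr20:45891085-45891384, plus strand: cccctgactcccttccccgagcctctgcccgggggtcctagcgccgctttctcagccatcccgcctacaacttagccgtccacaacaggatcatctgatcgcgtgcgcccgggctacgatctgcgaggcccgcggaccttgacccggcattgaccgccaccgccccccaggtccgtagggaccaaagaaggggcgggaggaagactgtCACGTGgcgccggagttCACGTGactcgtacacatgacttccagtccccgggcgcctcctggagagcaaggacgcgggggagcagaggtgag
ATP6V0D1, chr16:67481108-67481407, minus strand: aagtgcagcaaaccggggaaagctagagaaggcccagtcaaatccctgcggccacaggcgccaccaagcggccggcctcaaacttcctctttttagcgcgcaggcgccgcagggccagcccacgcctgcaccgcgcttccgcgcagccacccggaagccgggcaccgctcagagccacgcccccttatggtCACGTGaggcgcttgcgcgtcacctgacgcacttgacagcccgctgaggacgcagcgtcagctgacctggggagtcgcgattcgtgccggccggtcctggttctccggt
MCOLN1, chr19:7522374-7522673, plus strand: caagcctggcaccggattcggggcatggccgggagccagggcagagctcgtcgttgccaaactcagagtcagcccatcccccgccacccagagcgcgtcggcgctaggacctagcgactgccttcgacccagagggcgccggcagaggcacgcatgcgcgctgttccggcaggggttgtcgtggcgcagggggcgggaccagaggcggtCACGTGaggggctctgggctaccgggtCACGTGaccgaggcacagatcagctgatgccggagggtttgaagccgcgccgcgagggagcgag

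The 8-base form stood in the windows of 5 of 23 lysosome genes, 21.7%, and of 1.18% of the 27305 genes in the table. The 6-base core stood in 8 of 23, 34.8%, against 8.77% of all genes. LAMP1 held 6 copies of the core, 2 of them within the 8-base form, and GAA, MCOLN1 and CTSA held 2 copies each. In ATP6V0D1 a single 8-base match began at position -60, where -1 is the last base before the start. CTSD and NEU1 held the core but not the 8-base form, at positions -47 and -126, and CD63 held the core in 1 of its 8 listed windows. The 7-base forms TCACGTG and CACGTGA, also searched, stood in 7 of 23 lysosome genes, 30.4%, against 4.49% of all genes. CTSD and NEU1 each held 1 match to a 7-base form. The GPNMB window, which lies inside the gene body as annotated in GENCODE 29, held no match, and that says only that these letters are not in this window.

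The 5 libraries held 1927 to 3705 kept cells and 85376888 to 114350566 unique molecular identifiers (UMIs, 1 per captured RNA molecule). The 72 h inhibitor library had the fewest kept cells, 1927, and the highest median per cell, 41573 UMIs, against 26540 to 33712 in the others. Mitochondrially encoded genes took a median of 3.31% of its UMIs and 2.55% in recovery, against 5.63% to 6.17% in the other libraries. All 7 epithelial markers, EPCAM and keratins among them, were at 10 CPM or more. Of 12 macrophage and leukocyte markers only CD14 reached 10 CPM, at 10.2 to 92.3 CPM, and C1QB was at 0 in every library. No fibroblast, endothelial or melanocyte marker reached 10 CPM, and the melanocyte markers summed to 0.806 to 1.90 CPM. Pairs of libraries shared 0 to 7 cell barcodes.

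Lysosome genes did not move as a block at 72 h of inhibitor. Against the 72 h untreated library, 14 of the 32 genes at 10 CPM or more were higher and 18 lower, with a median log2 ratio of -0.08, beside -0.14 over all 9346 genes, of which 39.0% were higher. Because library totals set these signs, the split turned to 22 higher and 10 lower with median-of-ratios scaling, which shifts every log2 ratio here by 0.23. Under that shift 42% to 43% of the same 9346 genes were lower. At least 1.5-fold higher were 3 lysosome genes, GPNMB, PSAP and ASAH1, and 0 were as much lower. GPNMB, at 8.98 CPM untreated and 59.4 CPM with inhibitor, reached 10 CPM only in the inhibitor library. Over all genes 7.38% were at least 1.5-fold higher and 20% as much lower. The members at 1.5-fold or more therefore lay on the higher side only, while on that side their share, 3 of 32, was near the background.

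GPNMB was the exception in size. Its level was 6.45 CPM in 0 h untreated cells, 10.1 CPM after 6 h of inhibitor, 8.98 CPM in 72 h untreated cells, 59.4 CPM after 72 h of inhibitor and 18.6 CPM for recovery. The 72 h inhibitor library stood far above the other 4, and recovery lay between it and the untreated libraries. At 72 h the inhibitor library was 6.62-fold (6.15 to 7.12) higher than the untreated one, and only 9 of the 9346 genes had a higher ratio. Recovery was 3.20-fold (3.03 to 3.37) lower than 72 h of inhibitor and still 2.07-fold (1.91 to 2.25) higher than 72 h untreated. Under the alternative settings the log2 ratio at 72 h ran from 2.59 to 3.20.

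**Figure D1:**
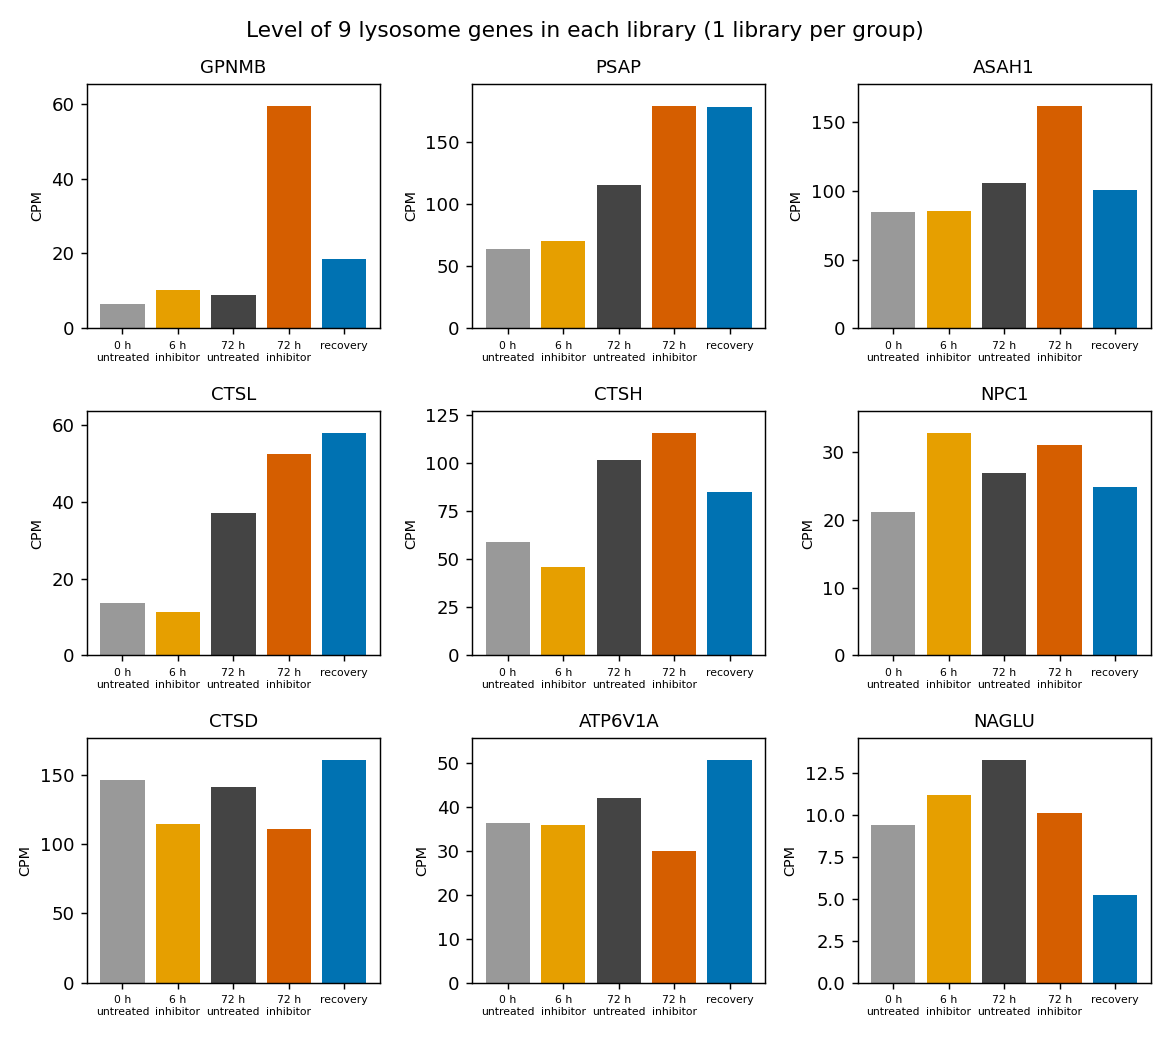
Levels of 9 lysosome genes in CPM (vertical axis, starting at 0, with its own range in each panel) in the 5 libraries (1 bar each, with no error bar because there is 1 library per group). GPNMB stands at 59.4 CPM at 72 h of inhibitor against 6.45 to 18.6 elsewhere, PSAP is at 179 CPM in the 72 h inhibitor library and 177 CPM in recovery, and ASAH1 is back near its untreated level in recovery.

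Genes of lipid breakdown and cholesterol export were the group with the highest median after 72 h of inhibitor. Of the 6, 4 were higher and 2 lower than at 72 h untreated, with a median log2 ratio of 0.27, and all 6 were higher with median-of-ratios scaling. Their summed level was 557 CPM against 420 CPM, and most of that difference came from PSAP and ASAH1, while GRN and LIPA were lower. The sum was 311 CPM in 0 h untreated cells, 313 CPM after 6 h of inhibitor and 501 CPM for recovery.

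PSAP, which encodes the precursor of the saposins that help hydrolases reach sphingolipids, was at 63.8 CPM in 0 h untreated cells, 69.8 CPM after 6 h of inhibitor, 115 CPM in 72 h untreated cells, 179 CPM after 72 h of inhibitor and 177 CPM for recovery. The last 2 libraries were the highest and close to each other. PSAP was 1.56-fold (1.52 to 1.60) higher at 72 h of inhibitor than at 72 h untreated. The matching ratio in recovery was 1.55-fold (1.51 to 1.58), while recovery and 72 h of inhibitor differed by 1.01-fold (0.986 to 1.03). The untreated libraries themselves lay 1.80-fold (1.75 to 1.85) apart, so the log2 ratio at 72 h of inhibitor was 0.64 against the 72 h untreated library and 1.49 against the 0 h one.

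ASAH1, the acid ceramidase that splits ceramide into sphingosine and a fatty acid, took another course. It stood at 84.4 CPM in 0 h untreated cells, 85.0 CPM after 6 h of inhibitor, 106 CPM in 72 h untreated cells, 162 CPM after 72 h of inhibitor and 101 CPM for recovery. Only the 72 h inhibitor library was set apart. Its ratio to 72 h untreated was 1.53-fold (1.49 to 1.57), and recovery was 1.60-fold (1.56 to 1.64) below it. Among cells low in cell cycle genes alone, the log2 ratio was 0.52, under the 1.5-fold limit. PSAP and ASAH1 thus differed in recovery, where PSAP stayed at its 72 h inhibitor level and ASAH1 was 1.05-fold (1.02 to 1.08) below 72 h untreated.

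NPC1 and NPC2 together carry cholesterol out of the lysosome. NPC2 was at 71.6, 64.4, 77.6, 97.4 and 93.5 CPM in the order 0 h untreated, 6 h inhibitor, 72 h untreated, 72 h inhibitor and recovery, which is the order of all lists of 5 values below. Its 2 highest libraries were 72 h inhibitor and recovery, as for PSAP. NPC1 had another pattern, with 21.1, 32.8, 26.9, 31.1 and 24.9 CPM, and was highest at 6 h of inhibitor, 1.55-fold (1.48 to 1.64) above 0 h untreated. That ratio was 0.64 on the log2 scale, with 0.29 when 72 h untreated cells served as reference and 0.47 with median-of-ratios scaling. GRN, the gene for progranulin, was at 56.6, 48.3, 76.8, 71.9 and 87.8 CPM, highest in recovery. LIPA, the lysosomal acid lipase that frees fatty acids from cholesteryl esters and triglycerides, was at 13.4, 12.5, 18.5, 16.7 and 16.5 CPM, with the 3 later libraries close together.

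Cathepsins, the main lysosomal proteases, were mostly lower at 72 h of inhibitor, as most genes were when library totals set the scale. Of 8 at 10 CPM or more, 6 were lower than at 72 h untreated, where 61.0% of all genes were lower. Their median log2 ratio was -0.34, and none was 1.5-fold lower. With median-of-ratios scaling, which raises every log2 ratio here by 0.23, those of all genes included, 5 were lower and the median was -0.11. Of all genes 42% to 43% were then lower. CTSD, the main aspartic protease of lysosomes, was at 146, 115, 141, 111 and 161 CPM. Both inhibitor libraries were thus below all the others. At 72 h its ratio was 1.28-fold (1.24 to 1.31) lower than untreated, and recovery was 1.45-fold (1.42 to 1.49) higher than 72 h of inhibitor. CTSB, a cysteine protease, was at 53.7, 48.4, 66.7, 51.4 and 77.5 CPM with the same 2 libraries lowest. Its recovery library was 1.51-fold (1.45 to 1.57) above 72 h of inhibitor, a ratio that fell under the 1.5-fold limit in 4 of 12 alternative settings. CTSA, a carboxypeptidase that also protects GLB1 and NEU1 in a complex, was at 31.4, 24.2, 33.2, 26.3 and 29.8 CPM, again lowest in the inhibitor libraries.

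CTSL, CTSH and CTSS, cysteine proteases, differed mostly between the untreated libraries. CTSL was at 13.7, 11.4, 37.1, 52.5 and 57.9 CPM. The 3 later libraries were well above the first 2, and within the later ones inhibitor and recovery stood above untreated. CTSL was 2.70-fold (2.54 to 2.87) higher at 72 h than at 0 h untreated, 1.42-fold (1.35 to 1.48) higher at 72 h of inhibitor than at 72 h untreated, and 1.56-fold (1.5 to 1.63) higher in recovery than at 72 h untreated. CTSS was at 5.79, 5.34, 16.8, 12.1 and 11.5 CPM, and CTSH at 59.1, 46.0, 102, 116 and 85.1 CPM. Both were lower at 0 h and 6 h than in the 3 later libraries. For genes that differ this much between untreated libraries, the choice of reference sets the result, and at 72 h of inhibitor the log2 ratio of CTSS was -0.47 against 72 h untreated and 1.06 against 0 h untreated. CTSL has a close paralog, CTSV, so its counts carry some doubt.

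CTSZ, a carboxypeptidase, was at 41.1, 36.3, 42.5, 31.5 and 24.7 CPM and was lowest in recovery, 1.72-fold (1.64 to 1.81) below 72 h untreated. With median-of-ratios scaling that log2 ratio was -0.52 in place of -0.78, short of 1.5-fold. CTSC, the peptidase that activates granule serine proteases in leukocytes, was at 81.3, 65.7, 72.5, 66.5 and 69.1 CPM, a narrow range with 0 h untreated highest. TPP1, the tripeptidyl peptidase, stayed between 5.65 and 7.60 CPM.

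**Figure D2:**
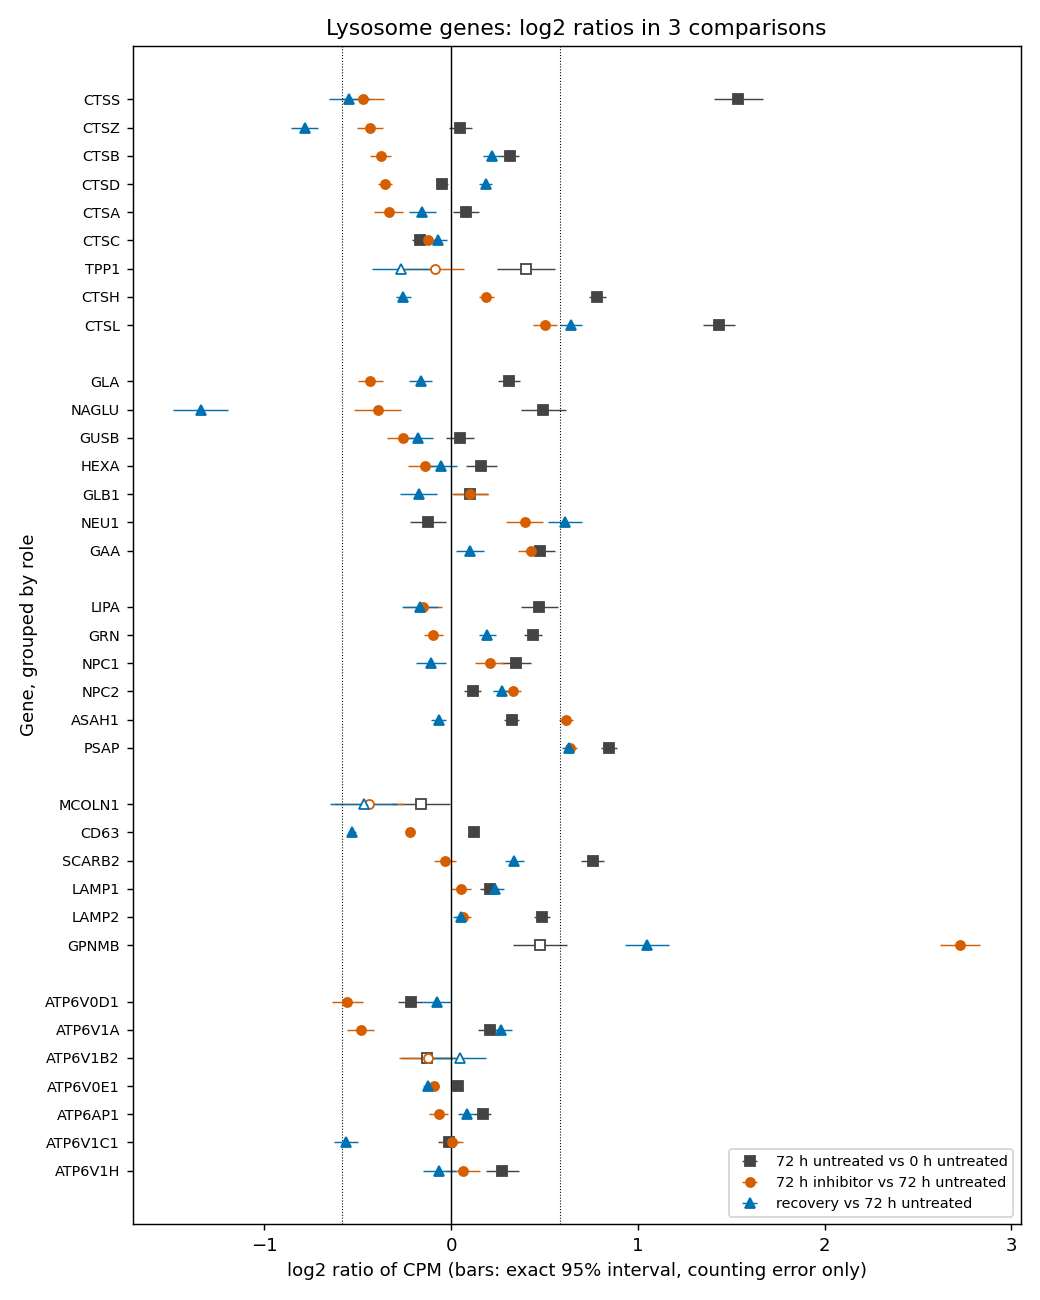
Log2 ratios of CPM (horizontal axis, with exact 95% intervals for counting error) for the 35 lysosome genes by role, in 3 comparisons: 72 h against 0 h untreated (squares), 72 h of inhibitor (circles) and recovery (triangles), both against 72 h untreated. Open symbols are genes under 10 CPM in both libraries and dotted lines mark 1.5-fold; GPNMB at 2.73 is far to the right of all other points, and NAGLU in recovery at -1.34 is farthest to the left.

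Glycosidases, which trim sugars from glycoproteins, glycolipids and glycosaminoglycans, were split at 72 h of inhibitor. Against 72 h untreated, 3 of 7 were higher and 4 lower, or 4 and 3 with median-of-ratios scaling, and none reached 1.5-fold. GAA, the acid glucosidase that breaks down glycogen, was at 21.3, 20.1, 29.6, 39.8 and 31.7 CPM, highest at 72 h of inhibitor by 1.35-fold (1.28 to 1.42) over untreated. NEU1, the sialidase, was at 18.1, 15.5, 16.6, 21.8 and 25.3 CPM, with 72 h of inhibitor and recovery above both untreated libraries and 6 h of inhibitor below them. NEU1 in recovery was 1.52-fold (1.43 to 1.62) higher than at 72 h untreated, and 0.48 on the log2 scale against 0 h untreated.

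NAGLU, an enzyme of heparan sulfate breakdown, had its lowest level in recovery. It was at 9.40, 11.2, 13.2, 10.1 and 5.23 CPM, and the first 4 libraries lay close together by comparison. Recovery was 2.53-fold (2.29 to 2.81) below 72 h untreated and 1.93-fold (1.73 to 2.15) below 72 h of inhibitor. GLA, the alpha-galactosidase, was at 39.8, 32.3, 49.4, 36.5 and 44.1 CPM and was lowest in the inhibitor libraries, as CTSD and CTSB were. GLB1, GUSB and HEXA, which remove galactose, glucuronic acid and hexosamine, each varied little. GLB1 ran from 16.5 to 20.6 CPM, GUSB from 23.8 to 28.5 and HEXA from 20.9 to 23.4. GUSB has many pseudogene copies in the genome, and its counts are uncertain for that reason.

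Among membrane proteins other than GPNMB, LAMP1, LAMP2 and SCARB2 were within 1.04-fold of untreated at 72 h of inhibitor, and CD63 was 1.17-fold (1.15 to 1.18) lower. LAMP1 was at 57.2, 54.8, 66.0, 68.5 and 77.7 CPM and LAMP2 at 71.1, 68.2, 99.5, 104 and 103 CPM. Both were higher in the 3 later libraries, and at 72 h both stood 1.04-fold above untreated, with intervals of 1.00 to 1.08 and 1.01 to 1.07. SCARB2, a membrane protein also known as LIMP-2, was at 31.8, 37.6, 53.8, 52.6 and 68.0 CPM, with 72 h of inhibitor and 72 h untreated the same within 1.02-fold (0.982 to 1.06) and recovery highest. CD63, a tetraspanin of late endosomes and exosomes, was at 419, 350, 456, 391 and 316 CPM. It was lowest in recovery, 1.44-fold (1.42 to 1.46) below 72 h untreated. MCOLN1, the calcium channel mucolipin, was at 6.91, 6.48, 6.18, 4.56 and 4.46 CPM, under 10 CPM throughout, and was 1.36-fold (1.19 to 1.55) lower at 72 h of inhibitor than untreated.

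V-ATPase genes were mostly close to their untreated levels at 72 h of inhibitor, with a median log2 ratio of -0.08. Of 6 at 10 CPM or more 2 were higher and 4 lower, or 4 and 2 with median-of-ratios scaling. ATP6V0D1, which couples the rotor to the membrane ring, was at 36.5, 28.5, 31.4, 21.4 and 29.8 CPM. ATP6V1A, the catalytic subunit that splits ATP, was at 36.4, 35.8, 42.1, 30.1 and 50.6 CPM. Both had their lowest level at 72 h of inhibitor, 1.47-fold (1.39 to 1.56) and 1.40-fold (1.33 to 1.47) below 72 h untreated, and ATP6V1A in recovery was 1.68-fold (1.61 to 1.77) above 72 h of inhibitor.

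ATP6V1C1, a stalk subunit, had a different outlier. It was at 50.9, 53.3, 50.4, 50.6 and 34.2 CPM, level in 4 libraries and lowest in recovery, 1.48-fold (1.41 to 1.54) below 72 h untreated. ATP6V0E1, a small membrane subunit, ran from 244 to 305 CPM and ATP6AP1, an accessory subunit, from 59.1 to 83.8 CPM. For both the 6 h inhibitor library was lowest. ATP6V1H, a regulatory subunit, ran from 18.7 to 23.6 CPM and ATP6V1B2, a nucleotide-binding subunit, from 7.48 to 9.16 CPM, so subunits of this 1 enzyme did not share a pattern over the 5 libraries.

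At 6 h of inhibitor the lysosome genes were mostly lower than at 0 h untreated, whereas most genes were higher when library totals set the scale. The series holds no untreated library at 6 h, so inhibitor and time in culture cannot be told apart here. Of 31 genes 10 were higher and 21 lower, with a median log2 ratio of -0.09, beside 0.10 over 9075 genes, of which 60.2% were higher. With median-of-ratios scaling the split was 5 and 26. That scaling shifts every log2 ratio here by -0.17, those of all genes included, so the 60.2% does not apply to it. Under that shift 56% to 57% of the same 9075 genes were lower, so most genes then shared the direction of the lysosome genes. All 7 cathepsins at 10 CPM or more were lower, by 1.11-fold for CTSB to 1.30-fold for CTSA, under every scaling tried. At least 1.5-fold higher were NPC1 and GPNMB, 2 genes, beside 11% of all genes, and 0 were 1.5-fold lower, beside 0.882% of all genes. The higher count was 0 with either alternative scaling and also 0 when the other untreated library served as the control. GPNMB, which of these libraries reached 10 CPM only at 6 h of inhibitor, 10.1 CPM against 6.45 CPM, was 1.57-fold (1.43 to 1.73) above 0 h untreated, and 0.17 on the log2 scale against 72 h untreated.

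Gene length moved with this comparison. The genomic span and the log2 ratio at 6 h had a Spearman rho of 0.61 over 8752 coding genes, with a median log2 ratio of -0.17 in the 25% of genes with the shortest span and 0.39 in the 25% with the longest. Over the 31 lysosome genes rho was 0.48, and the median span was 45.6 kb for those higher and 18.3 kb for those lower. At 72 h of inhibitor rho was 0.06 over the lysosome genes and -0.03 over all coding genes. The part of gene length in the 6 h result was not tested.

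**Figure D3:**
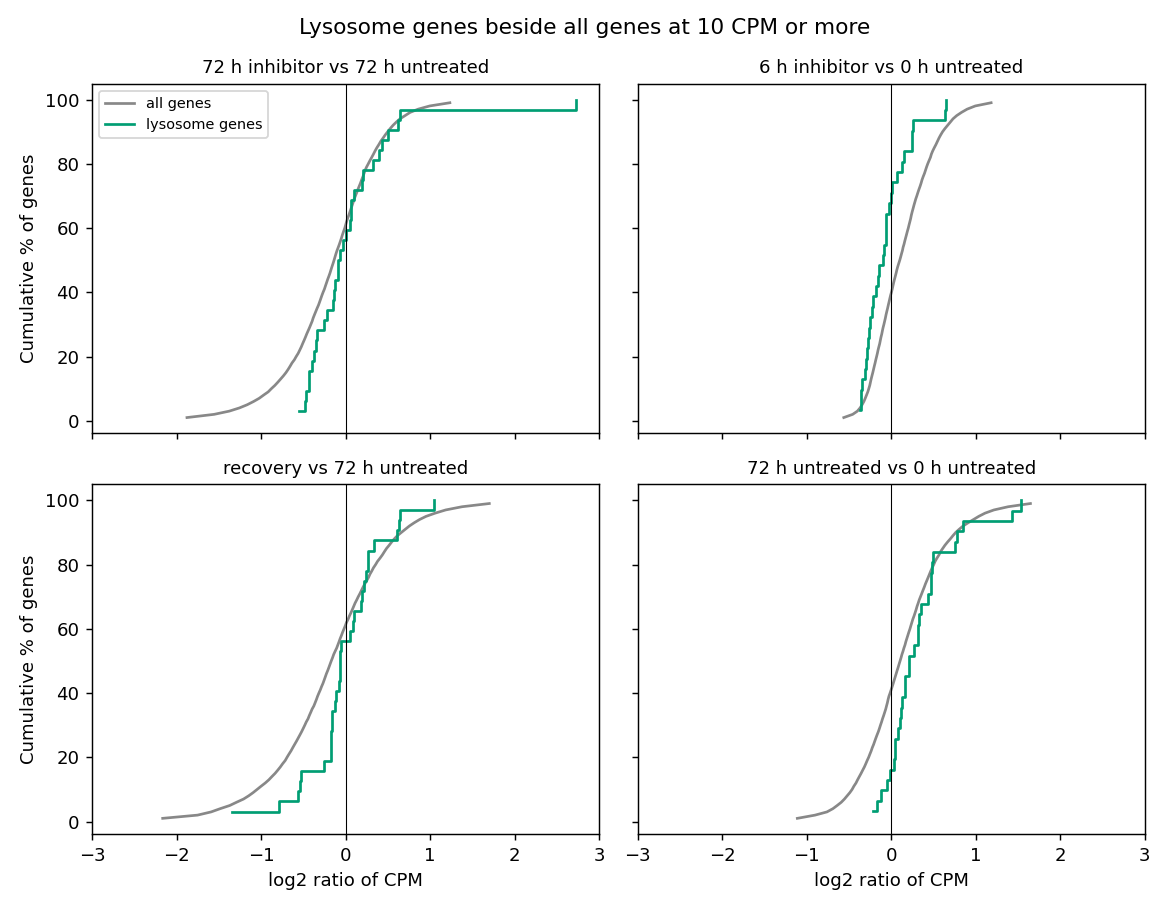
Cumulative share of genes (vertical axis, %) by log2 ratio of CPM (horizontal axis) in 4 comparisons, for the lysosome genes (steps) and for all genes at 10 CPM or more (smooth line, 1st to 99th percentile). The lysosome curve lies left of the all-gene curve at 6 h of inhibitor, with medians of -0.09 and 0.10, and right of it over most of its range at 72 h untreated against 0 h untreated, with medians of 0.21 and 0.10.

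Between the untreated libraries the lysosome genes were mostly higher at 72 h than at 0 h. Of 31 genes 26 were higher and 5 lower, with a median log2 ratio of 0.21, beside 0.10 over 9303 genes, of which 58.9% were higher. With median-of-ratios scaling 15 were higher and 16 lower. That scaling shifts every log2 ratio here by -0.26, those of all genes included, so the 58.9% does not apply to it. Under that shift 63% to 64% of the same 9303 genes were lower. At least 1.5-fold higher were CTSL, CTSS, CTSH, PSAP and SCARB2, 5 genes, beside 15.9% of all genes, and 0 were 1.5-fold lower, beside 6.2% of all genes. CTSS was 2.90-fold (2.65 to 3.18), CTSH 1.72-fold (1.67 to 1.77) and SCARB2 1.69-fold (1.62 to 1.76) higher. CTSS, at 5.79 CPM at 0 h and 16.8 CPM at 72 h, reached 10 CPM only in the 72 h library. CTSH and SCARB2 were under 1.5-fold with median-of-ratios scaling and with the trimmed mean of M values, and PSAP with the first of these. CD14, the only leukocyte marker above 10 CPM, was at 25.5 CPM at 0 h and 92.3 CPM at 72 h untreated, while each of the other leukocyte markers was at 3.09 CPM or less.

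Recovery cells kept part of the pattern seen at 72 h of inhibitor and had some of their own. Against 72 h of inhibitor, 15 of 32 lysosome genes were higher and 17 lower, with a median log2 ratio of -0.010, beside -0.0086 over 8943 genes. At least 1.5-fold higher were CTSB and ATP6V1A, 2 genes, beside 14.2% of all genes. As much lower were GPNMB, NAGLU and ASAH1, 3 genes, beside 14.3% of all genes. NAGLU, at 5.23 CPM in recovery and 10.1 CPM at 72 h of inhibitor, reached 10 CPM only in the inhibitor library. Both shares of lysosome genes were below those of all genes.

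Against 72 h untreated, recovery had 14 of 32 lysosome genes higher and 18 lower, with a median log2 ratio of -0.06, beside -0.17 over 9405 genes, of which 38.7% were higher. With median-of-ratios scaling 27 were higher and 5 lower. That scaling raises every log2 ratio here by 0.26, those of all genes included, so the 38.7% does not apply to it. Under that shift 43% to 44% of the same 9405 genes were lower. At least 1.5-fold higher were GPNMB, CTSL, PSAP and NEU1, 4 genes, beside 11.7% of all genes. As much lower were NAGLU and CTSZ, 2 genes, beside 24.9% of all genes. GPNMB, at 18.6 CPM in recovery and 8.98 CPM untreated, reached 10 CPM only in recovery. NAGLU, at 5.23 and 13.2 CPM, did so only in the untreated library. The 2 comparisons with 72 h untreated cells share that library, so their ratios are not independent of each other.

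Some genes lay beyond both untreated libraries by 1.5-fold. At 72 h of inhibitor these were PSAP, ASAH1 and GPNMB above, 3 of 32 where 5.94% of all genes did so, and 0 below, where 13.4% of all genes did so. In recovery they were CTSL, PSAP and GPNMB above, 3 genes beside 10.3% of all genes, and CTSZ and NAGLU below, 2 genes beside 18.3% of all genes. PSAP and GPNMB were on both lists of higher genes. GPNMB was under 10 CPM in both untreated libraries and entered each list only through the inhibitor or recovery library. For the recovery list NAGLU reached 10 CPM only in the 72 h untreated library.

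The library with the highest level differed between genes. Of the 32 genes, 2 peaked in the 0 h untreated library, 3 in 6 h inhibitor, 10 in 72 h untreated, 8 in 72 h inhibitor and 9 in recovery cells. The shares over all genes were 18.3%, 25.9%, 17.6%, 15% and 23.1%. The 8 that peaked at 72 h of inhibitor were GPNMB, PSAP, ASAH1, NPC2, GAA, CTSH, LAMP2 and ATP6V1H. Scaling decided many of these, and with median-of-ratios scaling the counts were 8, 0, 2, 8 and 14. The shares over all genes were then 28.4%, 17.3%, 6.61%, 18.9% and 28.8%.

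The genes that carry the 8-base promoter element did not share a direction. At 72 h of inhibitor against untreated, log2 ratios were 0.43 for GAA, 0.05 for LAMP1, -0.34 for CTSA and -0.56 for ATP6V0D1, and -0.44 for MCOLN1, which was under 10 CPM. GPNMB, whose window above has no match to any searched form, had the highest ratio of the 35 genes, 2.73. Forms of the element without the core CACGTG were not searched.

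As a share of the RNA, the whole set differed less between libraries than some of its members did. The 35 genes summed to 2016, 1795, 2349, 2380 and 2291 CPM, lowest at 6 h of inhibitor and nearly equal in the 3 later libraries. In counts per kept cell, with no correction for depth, the sum was 62.2, 63.7, 75.5, 105 and 66.2 UMIs. The 72 h inhibitor library, whose cells held most UMIs in all, was the highest. Larger cells and deeper capture cannot be told apart in these counts.

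To compare cells at 1 depth, cells with 5000 UMIs or more had a random 5000 of them drawn (thinned cells). The median cell then held 10, 9, 12, 12 and 11 UMIs of lysosome genes. The share of cells above 15 such UMIs, the 90th percentile at 0 h untreated, was 7.32%, 3.54%, 16.2%, 17.8% and 14.6%. Cells are not replicates, and the 95% intervals of the 72 h libraries, 14.9% to 17.6% for untreated and 16.1% to 19.6% for inhibitor cells, cover the counting of cells only. No library showed a separate group of high cells.

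**Figure D4:**
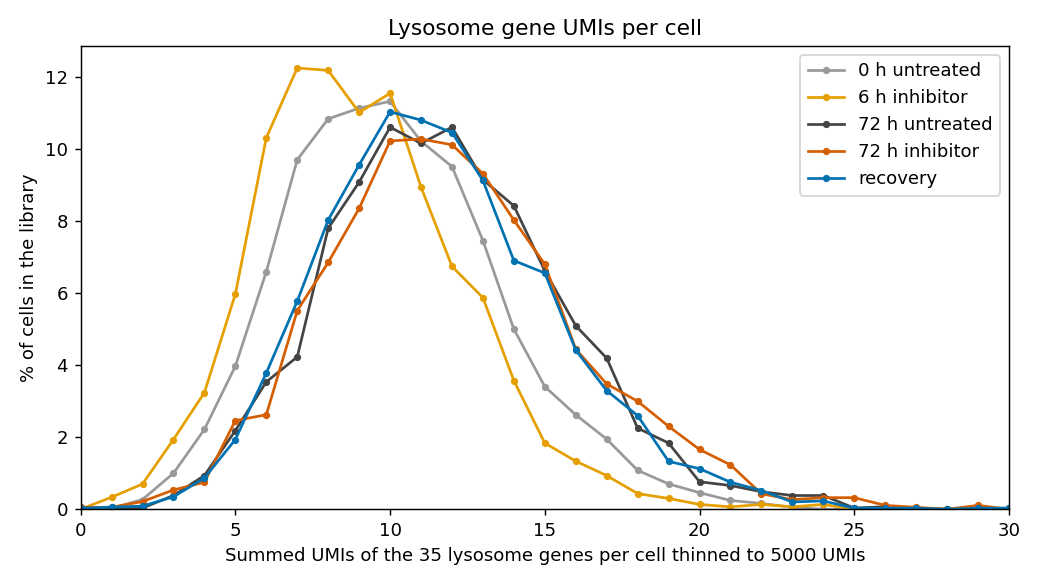
Share of cells (vertical axis, % of the library) by the summed UMIs of the 35 lysosome genes in cells thinned to 5000 UMIs (horizontal axis), 1 line per library. The 6 h inhibitor cells lie lowest, with a median of 9, the 0 h untreated cells have a median of 10, and the 3 later libraries overlap at medians of 11 to 12.

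The genes of lipid breakdown and cholesterol export were counted per cell at the same matched depth, and the intervals cover the counting of cells only. Cells with more than 3 UMIs of these 6 genes, of which PSAP and ASAH1 had the highest levels at 72 h of inhibitor, made up 7.54% of 0 h untreated cells, 7.28% of 6 h inhibitor cells and 16.7% (15.4 to 18.1) of 72 h untreated cells. They made up 29.98% (27.9 to 32.1) of 72 h inhibitor cells and 24.8% (23.3 to 26.2) of recovery cells. For cathepsins the matching shares above 4 UMIs were 12.1% of 72 h untreated, 11.7% of 72 h inhibitor and 13.5% of recovery cells.

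GPNMB UMIs were seen in many more cells at 72 h of inhibitor. At matched depth a GPNMB UMI was present in 2.86% of 0 h untreated cells, 4.21% of 6 h inhibitor cells, 3.92% of 72 h untreated cells, 24.1% (22.2 to 26.2) of 72 h inhibitor cells and 8.95% (8.02 to 9.95) of recovery cells. Unthinned, the shares were 13.5%, 22.1%, 19.0%, 75.1% and 32.1%. No cells of another type were present to measure free RNA, which can add UMIs to cells that do not express a gene. The 72 h inhibitor counts per cell had a variance 1.26 times their mean, where a Poisson count has a ratio of 1. CTSL had the widest spread of the 35 genes there, at 1.55 times, with up to 9 UMIs in a thinned cell.

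Thinned cells with and without a GPNMB UMI were close in their other lysosome genes, but this split cannot separate cells by expression. Unthinned, 75.1% of 72 h inhibitor cells held a GPNMB UMI, so many of those without one had lost it in the draw. At 72 h of inhibitor the other 34 genes summed to a median of 12 UMIs in 451 cells with a GPNMB UMI and 11 in 1417 cells without one, with quartiles of 9 and 14 in both. In recovery the medians were 11.5 and 11. PSAP UMIs were seen in 27.4%, 28.5%, 43.5%, 56.6% and 58.4% of thinned cells, and ASAH1 UMIs in 33.6%, 34.7%, 40.6%, 54.1% and 39.0%, the same order of libraries as in their summed levels, except that PSAP was above its 72 h inhibitor share in recovery. Cell shares of CTSD, 48.6%, 43.1%, 48.6%, 41.4% and 52.7%, followed its levels, with the inhibitor libraries lowest.

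**Figure D5:**
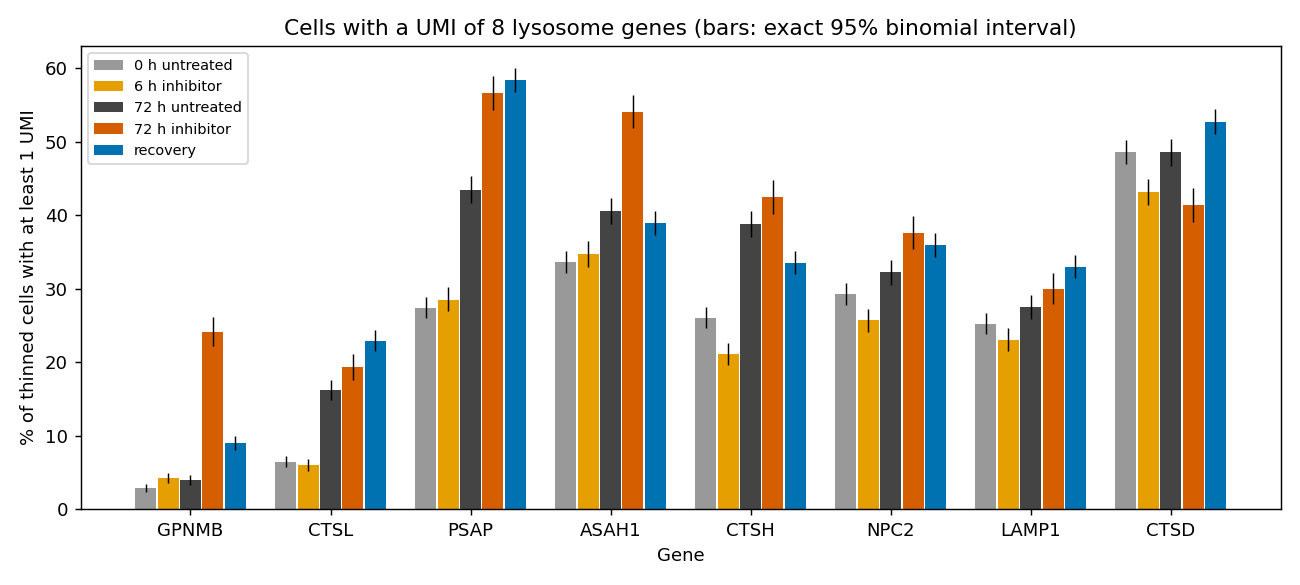
Share of cells thinned to 5000 UMIs that hold at least 1 UMI of a gene (vertical axis, %, with exact 95% binomial intervals over cells) for 8 lysosome genes in the 5 libraries. GPNMB is at 24.1% at 72 h of inhibitor and at 2.86% to 8.95% elsewhere, and CTSD is lowest in the inhibitor libraries, at 43.1% and 41.4%.

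Cell cycle composition differed between the libraries, also between the untreated ones. Cells low in both S phase and G2/M genes were 30.6%, 33.2%, 47.4%, 75.2% and 42.5% of thinned cells, most at 72 h of inhibitor. Within each library the lysosome genes had a median log2 ratio of 0.03 to 0.07 between these cells and the rest. Over all genes that median was -0.02 in each library except recovery, where it was 0.06. Among the low cells alone the ratios of GPNMB and PSAP at 72 h of inhibitor stayed above 1.5-fold, and that of ASAH1 did not.

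A further 80 lysosome symbols, chosen by function, were examined beside the 35, of which 79 were in the files. At 72 h of inhibitor against untreated, 62 were at 10 CPM or more, 27 higher and 35 lower, with 7 at least 1.5-fold higher and 8 as much lower, where 7.38% and 20% of all genes were. With median-of-ratios scaling 38 were higher and 24 lower, 12 and 5 of them by 1.5-fold. That scaling raises every log2 ratio here by 0.23, those of all genes included, so the shares just given do not apply to it. Of all genes 42% to 43% were then lower, and the larger share then at least 1.5-fold higher is given with the alternative settings below. Before that rescaling the further genes had a median log2 ratio of -0.05, near that of the 35.

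Other hydrolases included the lowest ratios, 2.27-fold (2.04 to 2.53) lower for the cathepsin gene CTSV and 2.18-fold (2 to 2.36) lower for the hyaluronidase gene HYAL2. The highest of that list was DPP7, a dipeptidase, at 1.31-fold (1.27 to 1.35) higher. Among other V-ATPase genes ATP6V0A2 was 1.76-fold (1.61 to 1.92) and ATP6V1E1 1.49-fold (1.45 to 1.53) higher, whereas ATP6V0E2 was 1.86-fold (1.71 to 2.02) and ATP6V0A1 1.57-fold (1.42 to 1.73) lower. Isoforms of the large membrane subunit, ATP6V0A1 and ATP6V0A2, were thus on opposite sides. Among membrane and sorting genes CLCN7, the chloride-proton exchanger, was 1.98-fold (1.79 to 2.18) and SLC17A5, the sialic acid exporter, 1.43-fold (1.36 to 1.49) higher. LAPTM4B and LAPTM4A were 2.01-fold (1.93 to 2.09) and 1.42-fold (1.38 to 1.45) lower. ATP6V0A2, at 8.64 CPM untreated and 15.2 CPM with inhibitor, and CLCN7, at 6.86 and 13.6, entered only through the inhibitor library. CTSV, at 12.5 and 5.52 CPM, HYAL2, at 20.9 and 9.60, and ATP6V0A1, at 12.4 and 7.93, entered only through the untreated one.

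The last of these lists holds the transcription factors and their signalling partners at the lysosome surface. Of 17 at 10 CPM or more at 72 h of inhibitor, 11 were higher than untreated and 6 lower, with 5 at least 1.5-fold higher and 1 as much lower, where 7.38% and 20% of all genes were. With median-of-ratios scaling, which raises every log2 ratio here by 0.23, those of all genes included, these counts were 6 and 0. MITF was then no longer 1.5-fold lower. The shares of all genes just given do not apply to that scaling. TFEB and FLCN entered only through the inhibitor library, FLCN at 11.4 CPM against 5.57 CPM untreated, and MITF only through the untreated one. The list was chosen with earlier results of these data known, so these counts are a description only. TFEB was at 5.53, 8.94, 7.55, 14.2 and 12.0 CPM, with the inhibitor library at 72 h and recovery highest. MITF was at 13.3, 25.7, 12.6, 7.27 and 11.9 CPM, highest at 6 h and lowest at 72 h of inhibitor. TFE3 was at 12.3, 13.1, 14.1, 14.3 and 23.8 CPM, highest in recovery. The 3 factors thus peaked in 3 different libraries.

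FLCN and FNIP1 form the complex that acts on the Rag GTPases and so controls whether TFEB and TFE3 enter the nucleus. At 72 h of inhibitor FLCN was 2.04-fold (1.83 to 2.28) and FNIP1 2.09-fold (2.01 to 2.18) higher than untreated. Ratios were 1.91-fold (1.83 to 2) for RRAGC and 1.80-fold (1.72 to 1.90) for RRAGD, which encode Rag GTPases, and 1.88-fold (1.72 to 2.07) for TFEB. MITF was 1.73-fold (1.57 to 1.91) lower and LAMTOR1, an anchor of the Rag complex, 1.46-fold (1.42 to 1.51) lower. FNIP1 was 2.23-fold (2.13 to 2.32) higher at 6 h of inhibitor than at 0 h untreated. Without an untreated library at 6 h, inhibitor and time in culture cannot be told apart there. The part of gene length in this ratio was not tested.

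In recovery against 72 h untreated, 60 of the further genes were at 10 CPM or more, 28 higher and 32 lower, or 39 and 21 with median-of-ratios scaling. At least 1.5-fold higher were 9 and as much lower 13, where 11.7% and 24.9% of all genes were. With median-of-ratios scaling, which raises every log2 ratio here by 0.26, those of all genes included, these counts were 14 and 4. The shares just given do not apply to that scaling, under which 43% to 44% of all genes were lower. The asparaginyl protease gene LGMN was 1.25-fold (1.18 to 1.33) higher, while HYAL2 was 2.31-fold (2.14 to 2.50) lower. ATP6V0A2 and ATP6V1E1 were again the highest V-ATPase genes, at 1.60-fold (1.46 to 1.74) and 1.49-fold (1.45 to 1.53), and TCIRG1 and ATP6V0E2 were lowest, at 1.61-fold (1.53 to 1.69) and 1.24-fold (1.16 to 1.33) below untreated. SLC17A5 and LAPTM4A were 1.57-fold (1.51 to 1.64) and 1.41-fold (1.38 to 1.43) higher, so LAPTM4A had opposite directions in the 2 comparisons. TPCN1, a two-pore channel, was 2.46-fold (2.27 to 2.67) and CLN3 1.64-fold (1.55 to 1.73) lower. ATP6V0A2 entered only through recovery, at 13.8 CPM against 8.64 CPM untreated. HYAL2, at 9.04 CPM in recovery and 20.9 CPM untreated, and TPCN1, at 8.77 and 21.6, entered only through the untreated library.

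Of the factors and partners, 6 of 16 were at least 1.5-fold higher in recovery than at 72 h untreated and 4 as much lower, where 11.7% and 24.9% of all genes were. With median-of-ratios scaling, which raises every log2 ratio here by 0.26, those of all genes included, the counts were 7 and 1. LAMTOR1 was then no longer 1.5-fold lower. The shares of all genes just given do not apply to that scaling. LAMTOR3 and RRAGD were highest, at 1.98-fold (1.86 to 2.11) and 1.84-fold (1.75 to 1.93), and RPTOR and LAMTOR1 lowest, at 1.97-fold (1.87 to 2.07) and 1.71-fold (1.66 to 1.77) below. TFEB was 1.59-fold (1.45 to 1.75) and TFE3 1.69-fold (1.58 to 1.81) higher. TFEB entered this comparison only through recovery, at 12.0 CPM against 7.55 CPM untreated.

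In the annotation, exons of some of these genes overlap those of other genes. GLB1 overlaps TMPPE and MCOLN1 overlaps PNPLA6 on the same strand. CTSA overlaps PLTP and NEURL2, NPC1 overlaps RMC1, NPC2 overlaps ISCA2 and LIPA overlaps IFIT2 on the opposite strand. ASAH1, CTSD, CD63, ATP6V1A, ATP6V1C1, HEXA and TPP1 overlap noncoding genes on the opposite strand. How the counting treated strand and shared exons is not given in the sources used here, so the levels of these genes are less certain than those of GPNMB and PSAP, for which no exon overlap was found.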

How the data were processed

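The authors deposited UMI counts for each gene in each cell barcode, made from 10x 3' single-cell libraries and not normalized. Reads were processed with Cell Ranger 7.1.0 on GRCh38, per the submitters' processing notes. Whether intronic reads were counted is not given in the sources used here.

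Kept cells had 1000 detected genes or more, with mitochondrial UMIs making up 20% or less. No doublet caller was run and cells were not clustered. The summed counts of a library were divided by its total to give CPM. Genes entered a comparison where either of its 2 libraries reached 10 CPM, and a sum of 0 would have been replaced by a floor of 3 counts. Intervals are exact Clopper-Pearson 95% intervals of the count ratio. Shares of cells have exact binomial 95% intervals, which leave out the randomness of thinning. PCR duplicates are removed by UMIs, but intervals cover counting error only. Kept cells under 5000 UMIs, left out of thinning, numbered 5, 10, 35, 59 and 75 in the order 0 h, 6 h, 72 h untreated, 72 h inhibitor and recovery.

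The 35 genes and the further lists were chosen with earlier results of these data known. All 35 could be named. Of each further list the 2 highest and 2 lowest ratios were named for 72 h of inhibitor and for recovery, each against 72 h untreated, together with TFEB, TFE3 and MITF. Some genes that this rule picks are not reported here. FNIP1 at 6 h, RRAGC, RRAGD and the recovery values of TFEB and TFE3 were added after their values were seen. Gene positions and exon overlaps came from GENCODE 29 on GRCh38. The ratio step was tested on simulated data. Tables were handled with pandas 2.3.3 and numpy 2.4.6 in Python 3.11.15, intervals came from scipy 1.17.1, figures from matplotlib 3.10.9, and edgeR 4.0.16 served for the trimmed mean of M values alone.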

Additional observations from a re-analysis of the deposited data

How the results depend on the processing

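Each comparison was recomputed under up to 13 alternative settings. Of 1932 recomputed single-gene ratios, 0 turned a ratio of 1.5-fold or more to the opposite sign, and 551 moved beyond their counting interval. Median ratios of the 35 genes lie near 0, so scaling and the choice of untreated library set their sign. For 72 h of inhibitor against 72 h untreated the median turned positive, to 0.16 with median-of-ratios scaling, 0.14 with the trimmed mean of M values, 0.032 with totals without mitochondrial and ribosomal protein genes, 0.0043 with a minimum of 50 CPM and 0.23 against 0 h untreated. The count at least 1.5-fold higher was 6 with either scaling, beside 16.4% and 15.9% of all genes. It was 8 against 0 h untreated, where 1 gene was as much lower, but those 2 libraries also differ in time in culture. Shares over all genes are not reported here for that reference, or for the counts of 1.5-fold genes below.

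For 6 h of inhibitor the median was -0.29, -0.25, -0.19 and -0.31 with median-of-ratios scaling, the trimmed mean, 50 CPM and the other untreated library. The higher count was 0 in each of these. It was 1 with a mitochondrial limit of 10%, with cells of at least 20000 UMIs, with thinned cells and with cells low in both cell cycle lists. The lower count was 1 with the last of these and 6 against 72 h untreated.

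For recovery against 72 h of inhibitor the median turned positive, to 0.010 without the 5% of cells with most UMIs, 0.015 and 0.0055 with the 2 scalings, 0.070 with equal weight per cell, 0.033 thinned, 0.031 in cells low in cell cycle genes and 0.022 at 50 CPM, and it was -0.11 without mitochondrial and ribosomal totals. The higher count was 1 without those totals, with equal weight, thinned and in low cells.

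For recovery against 72 h untreated the median turned positive, to 0.20 and 0.18 with the 2 scalings, 0.0061 in cells low in cell cycle genes, 0.18 at 50 CPM and 0.26 against 0 h untreated. The lower count was 1 with either scaling and against 0 h untreated, 4 in low cells and 0 at 50 CPM, where the higher count was 2. Between untreated libraries the median turned negative, to -0.052 and -0.028 with the 2 scalings, and the higher count was 2 and 3, and 3 at 50 CPM. Counts of genes highest in each library, in the usual order, were 8, 0, 2, 8 and 14 with median-of-ratios scaling. Over all genes the shares were then 28.4%, 17.3%, 6.61%, 18.9% and 28.8%. The median share of lysosome UMIs in recovery cells was 0.22% thinned to 5000 UMIs and 0.23% thinned to 10000. A minimum of 50 CPM tests fewer genes; otherwise the cause was not tested. No paired analysis was possible because each group has 1 library. Low counts limit genes under 10 CPM, such as TPP1, MCOLN1 and ATP6V1B2.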
